A study of Homo sapiens with 12 samples.

Results

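The 10 genes FOS, FOSL1, FOSL2, JUN, JUNB, JUND, ATF3, EGR1, DUSP1 and IER3 were taken by name from the annotation of the deposited transcript tables, which held 60609 genes. All 10 were among the 17185 genes with a TPM (a level corrected for transcript length and for the size of the library) of 1 or more in at least 2 libraries, and these genes were tested. FOS, FOSL1 and FOSL2 belong to the FOS family, and JUN, JUNB and JUND make up the JUN family. A FOS protein pairs with a JUN protein, and JUN proteins also pair with each other, to form AP-1, a transcription factor that binds DNA as a dimer. ATF3 is a related leucine zipper protein induced by stress that can pair with JUN proteins. EGR1 is a zinc finger transcription factor, DUSP1 is a phosphatase that switches off MAP kinases, and IER3 is a short-lived protein of the early stress response. Many of these are immediate early genes, which MAP kinases switch on through factors already present in the cell, so that transcription starts without new protein being made. Their transcripts are usually short-lived.

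The study's title names mitochondrial double-stranded RNA and Sjögren's syndrome, an autoimmune disease of the salivary and tear glands. Polyadenylated RNA came from the human line NS-SV-AC, an established line of acinar cells from a salivary gland, so that every group derived from a single line. Cells received 2-CM (2'-C-methyladenosine, an adenosine analogue), RES (resveratrol, a plant polyphenol) or, as the control, the same volume of DMSO, the solvent. The dose of 2-CM or RES was 20 (its unit read as micromolar), added 24 h ahead of the transfection and once more together with it. For 14 h the transfected material was either poly I:C, which mimics double-stranded RNA, or a control that the labels call depc. The 6 groups were DMSO depc, DMSO poly I:C, 2-CM depc, 2-CM poly I:C, RES depc and RES poly I:C, with 2 replicate libraries in each. Nothing says whether replicates were separate cultures, so p-values measure only the spread between these libraries, which may be technical.

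The ratio of the deposited coverage to FPKM implied 3.72 to 6.002 aligned gigabases per library. OAS2, an interferon-induced sensor of double-stranded RNA, was at 0.0575 to 1.17 TPM in the 6 depc libraries and at 47.9 to 154 TPM in the 6 poly I:C libraries, so no library went against its transfection label. Of the acinar markers, AQP5, MUC7, PRB1 and STATH were listed at 0 in all 12 libraries and BHLHA15 reached at most 2.69 TPM. Of the epithelial markers, the keratins KRT8 and KRT18 were at 466 TPM or more in every library, KRT19 did not pass 0.243 TPM, EPCAM 1.23 TPM or CDH1, the epithelial cadherin, 0.596 TPM, and KRT5 and KRT14 were listed at 0. Of the myoepithelial markers, ACTA2 was at 13.5 to 28.6 TPM and CNN1 at 1.56 to 7.66 TPM, and MYH11 and TP63 did not pass 0.376 TPM. Of the fibroblast markers, COL1A1 was at 15.9 to 100.3 TPM, PDGFRB at 4.20 to 11.0 TPM and DCN at 0.584 to 18.0 TPM, and COL1A2, the partner chain of COL1A1, was listed at 0 in 11 of 12 libraries. Of the leukocyte markers, PTPRC, CD3E and MS4A1 were listed at 0 in all 12, and CD68 was at 1.68 to 8.80 TPM. Replicates differed in step with the GC content of genes, by the Spearman correlation across genes of GC content with replicate 1 minus replicate 2. It was below 0 in every group but RES poly I:C, from -0.78 in RES depc to -0.43 in 2-CM poly I:C. In RES poly I:C alone it was above 0, at 0.77. Counts of members called after a correction for GC content are therefore given beside the main comparisons, and the part of this trend in them was otherwise not tested. In bulk RNA, fewer cells with a transcript and less of it per cell cannot be told apart.

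The DNA just before the starts of FOS, JUN, EGR1 and DUSP1 is shown. These 4 genes were called higher with poly I:C in cells given 2-CM, as were 37.5% of all genes. ATF3 was called too but had no window at its start. After each library was rescaled by the median of ratios, JUN, EGR1 and DUSP1 were not called. Each sequence holds the 250 bases before the start, 5′ to 3′ on the gene's own strand, from RefSeq on GRCh38.p14. They lie at chr14:75278578-75278827 (plus strand) for FOS, chr1:58784048-58784297 (minus strand) for JUN, chr5:138465229-138465478 (plus strand) for EGR1 and chr5:172771196-172771445 (minus strand) for DUSP1. Capitals mark matches, on either strand, to TGACG, the core of the cyclic AMP response element (CRE), to the longer CRE-like TGACNTCA, which overlaps TGACG where N is G, and to the CArG box bound by serum response factor.
FOS: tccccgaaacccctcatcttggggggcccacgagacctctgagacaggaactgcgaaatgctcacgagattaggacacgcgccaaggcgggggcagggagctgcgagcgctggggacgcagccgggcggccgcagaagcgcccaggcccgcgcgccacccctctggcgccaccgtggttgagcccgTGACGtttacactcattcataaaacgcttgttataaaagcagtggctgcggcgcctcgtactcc
JUN: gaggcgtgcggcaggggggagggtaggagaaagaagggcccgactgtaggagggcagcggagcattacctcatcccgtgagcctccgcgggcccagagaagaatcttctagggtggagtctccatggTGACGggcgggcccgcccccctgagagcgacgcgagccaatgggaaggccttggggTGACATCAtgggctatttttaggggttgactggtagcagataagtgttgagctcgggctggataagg
EGR1: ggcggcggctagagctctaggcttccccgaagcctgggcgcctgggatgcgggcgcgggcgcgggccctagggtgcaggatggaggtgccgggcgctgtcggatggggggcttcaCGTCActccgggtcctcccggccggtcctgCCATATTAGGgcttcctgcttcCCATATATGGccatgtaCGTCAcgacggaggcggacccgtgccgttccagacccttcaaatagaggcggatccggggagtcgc
DUSP1: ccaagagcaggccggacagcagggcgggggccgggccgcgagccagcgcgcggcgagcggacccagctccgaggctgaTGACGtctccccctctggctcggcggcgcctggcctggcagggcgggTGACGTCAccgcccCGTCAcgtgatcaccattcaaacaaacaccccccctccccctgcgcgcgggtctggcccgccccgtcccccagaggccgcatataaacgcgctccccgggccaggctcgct
In FOS the single match was TGACG at positions -64 to -60, counted backwards from the start. In JUN the CRE-like TGACATCA stood at -67 to -60 and a TGACG at -123 to -119. In EGR1, 2 CArG boxes stood at -105 to -96 and at -83 to -74. In DUSP1 the full TGACGTCA stood at -125 to -118.

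RefSeq windows were at hand for 8 of the 10 genes, without FOSL1 and IER3. For FOS, FOSL2, JUN, JUNB, JUND, EGR1 and DUSP1 the window ended just before the start of the transcript with the most TPM, and these 7 were searched. The windows of ATF3 precede starts 6257 bases or more from that of its main transcript, which held 65.7% to 89.7% of its TPM. They were not searched. All 7 held TGACG, which 21.2% of 35116 RefSeq windows of the same length hold. TGACNTCA was found in JUN, JUND and DUSP1 (6.87% of all windows) and a CArG box in EGR1 (1.16%). The SP1 box GGGCGG was found in FOS, FOSL2, JUN, JUND and DUSP1 (42.6%), and TATAAA, read on the gene's strand only, in FOS, JUNB and DUSP1 (6.80%). No window held TGANTCA, a form of the AP-1 site (6.57% of all windows), the interferon-stimulated response element (3.02%) or an NF-kB site (8.04%). Other forms of the AP-1 site were not searched for as such, so these windows may still hold one. Such a match is a run of letters, not a bound site, and the lack of one says only that these letters are not in this window.

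FOS (chr14:75278826-75282230, plus strand, hg38), the inducible partner of AP-1, spanned the widest range of the 10 relative to its lowest level. It was at 2.39 and 1.71 TPM in the DMSO depc libraries, 14.2 and 7.73 TPM in DMSO poly I:C, 2.80 and 1.80 TPM in 2-CM depc, 18.5 and 15.9 TPM in the 2-CM poly I:C libraries, 12.1 and 9.50 TPM in RES depc, and 31.7 and 20.7 TPM in RES poly I:C. Under each compound both poly I:C libraries were above both depc libraries. On this sum over transcripts RES depc cells, which received no poly I:C, lay within the range of DMSO poly I:C cells. The group means ran, from the highest, RES poly I:C, 2-CM poly I:C, DMSO poly I:C, RES depc, 2-CM depc and DMSO depc. The libraries of DMSO poly I:C and RES depc overlapped, as did those of 2-CM depc and DMSO depc, and the other neighbours in that order did not. The main transcript of FOS held 37.7% to 79.2% of its TPM, and on it alone the order differed. There RES depc was at 9.55 and 5.81 TPM, above DMSO poly I:C at 5.38 and 4.56 TPM. It overlapped 2-CM poly I:C, at 10.3 and 8.41 TPM.

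**Figure D1:**
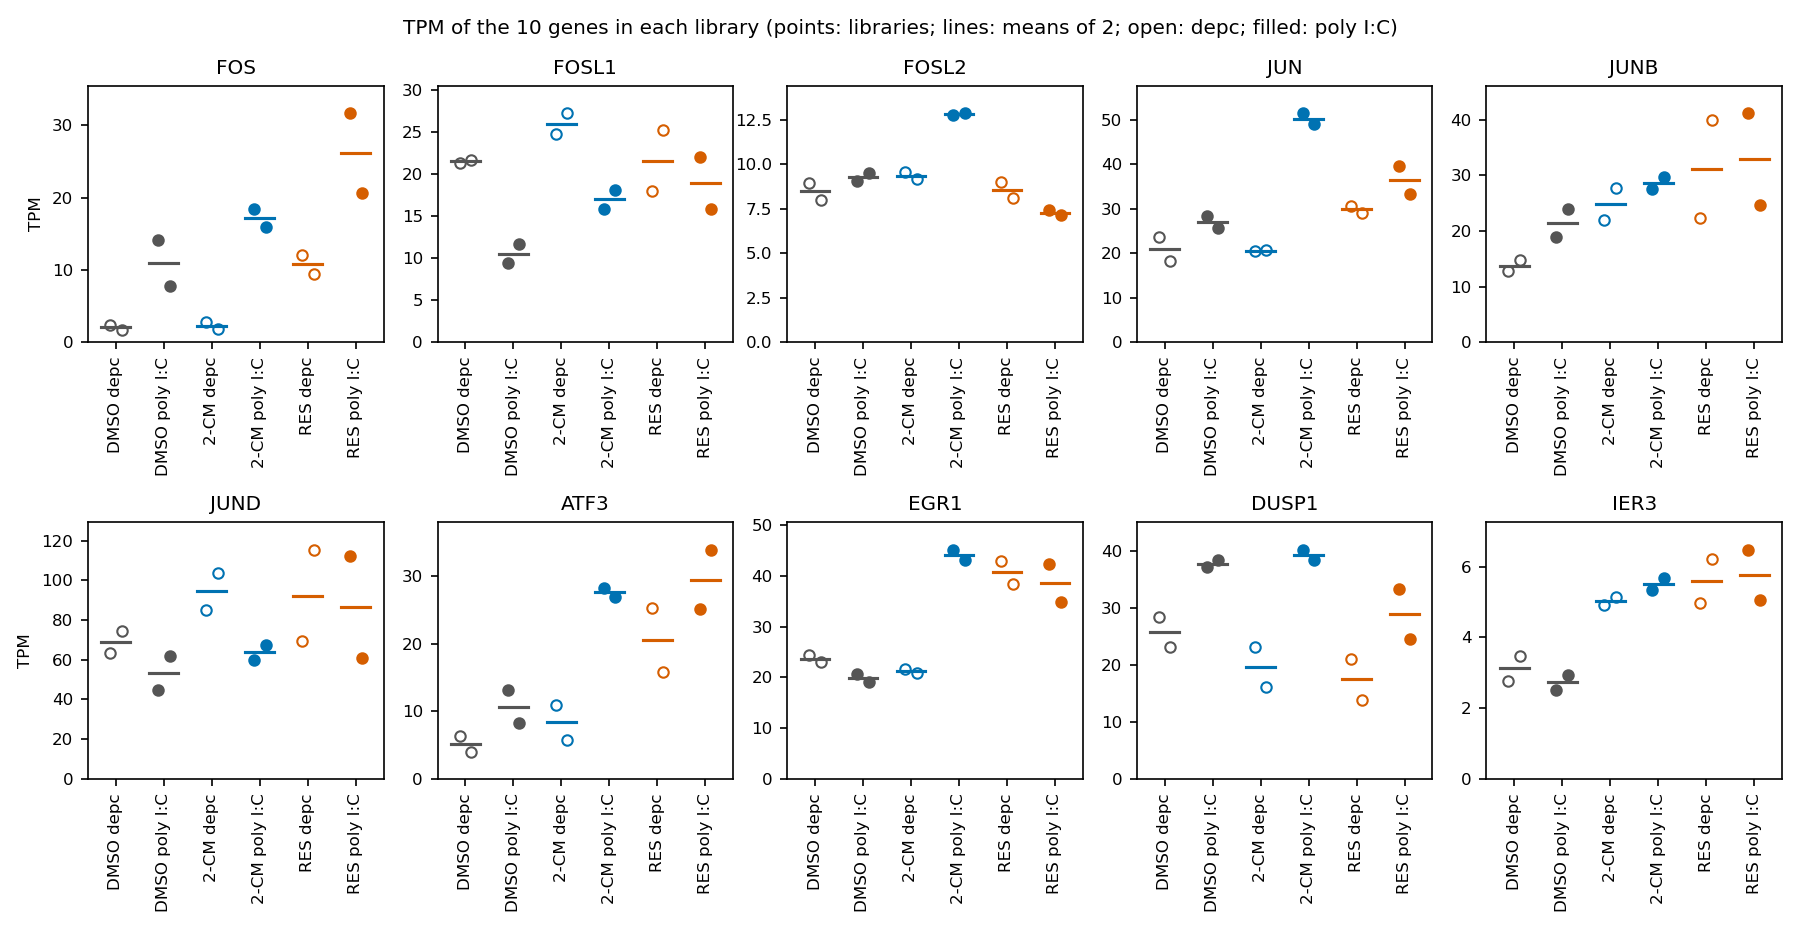
TPM (vertical axes, each from 0) of the 10 genes in the 6 groups (horizontal axes), with each point a library and each line the mean of 2. FOS had its highest mean in RES poly I:C, 26.2 TPM, and its lowest in DMSO depc, 2.05 TPM, and EGR1 had means of 44.2, 40.7 and 38.6 TPM in the 2-CM poly I:C group and the RES depc and RES poly I:C groups.

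FOSL1 (chr11:65892049-65900573, minus strand), which encodes FRA-1, a FOS family protein that lacks the C-terminal activation domain of FOS, was the most abundant of the family in depc cells. It was at 21.4 and 21.7 TPM in DMSO depc, 9.42 and 11.7 TPM in DMSO poly I:C, 24.8 and 27.3 TPM in 2-CM depc, 15.8 and 18.2 TPM in the 2-CM poly I:C libraries, 18.0 and 25.3 TPM in RES depc, and 22.0 and 15.9 TPM in RES poly I:C. Poly I:C libraries were below depc libraries under DMSO and 2-CM, and the groups overlapped under RES. FOSL2 (chr2:28392448-28417317, plus strand), which encodes the similar protein FRA-2, ranged from 7.14 TPM in a RES poly I:C library to 12.9 TPM in a 2-CM poly I:C library.

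JUN (chr1:58780791-58784047, minus strand), the classical partner of FOS and itself an AP-1 target, was at 23.6 and 18.3 TPM in DMSO depc and at 28.3 and 25.6 TPM in DMSO poly I:C. With 2-CM its TPM was 20.4 and 20.6 for depc, against 51.4 and 48.9 for poly I:C, its highest level. In RES depc it was at 30.7 and 29.0 TPM and in RES poly I:C at 39.5 and 33.4 TPM. Both poly I:C libraries thus exceeded both depc libraries under all 3 compounds. JUNB (chr19:12791486-12793315, plus strand), a JUN protein that can restrain JUN, went from 12.8 TPM in a DMSO depc library to 41.1 TPM in a RES poly I:C library. JUND (chr19:18279694-18281622, minus strand), the member that resting cells usually keep at a steady level, was the most abundant of the 10 genes in every library, from 44.8 TPM in a DMSO poly I:C library to 115 TPM in a RES depc library. The exons of JUNB overlap those of HOOK2 on the opposite strand by 259 bases. HOOK2 was at 7.37 to 23.1 TPM, and the file headers carry no strand option, so the level of JUNB is uncertain.

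ATF3 (chr1:212565334-212620777, plus strand) was at 6.28 and 3.91 TPM in DMSO depc, 13.1 and 8.24 TPM in DMSO poly I:C, 11.0 and 5.74 TPM in 2-CM depc, 28.3 and 26.9 TPM in the 2-CM poly I:C libraries, 25.3 and 15.8 TPM in RES depc, and 25.1 and 33.9 TPM in RES poly I:C. It was high in 2-CM poly I:C and in both RES groups, and the RES groups overlapped each other. EGR1 (chr5:138465479-138469303, plus strand) was at 24.3 and 23.0 TPM in DMSO depc, 20.7 and 19.1 TPM in DMSO poly I:C, 21.7 and 20.9 TPM in 2-CM depc, 45.1 and 43.2 TPM in the 2-CM poly I:C libraries, 42.9 and 38.5 TPM in RES depc, and 42.4 and 34.8 TPM in RES poly I:C. Both DMSO groups and 2-CM depc lay between 19.1 and 24.3 TPM, and the other 3 groups between 34.8 and 45.1 TPM.

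DUSP1 (chr5:172768096-172771195, minus strand), whose product ends the MAP kinase signal, had another order of groups. It was at 28.3 and 23.1 TPM in DMSO depc, 37.1 and 38.3 TPM in DMSO poly I:C, 23.1 and 16.0 TPM in 2-CM depc, 40.1 and 38.3 TPM in the 2-CM poly I:C libraries, 21.0 and 13.8 TPM in RES depc, and 33.3 and 24.4 TPM in RES poly I:C. Poly I:C libraries were above depc libraries under every compound, and RES libraries were below DMSO libraries in both transfections, the opposite side from FOS, ATF3 and EGR1. IER3 (chr6:30743199-30744548, minus strand) was low throughout, between 2.52 TPM in a DMSO poly I:C library and 6.47 TPM in a RES poly I:C library, and all 4 DMSO libraries were below all 8 others. Across the 12 libraries the Pearson correlation of log2(TPM + 1) was 0.90 between FOS and ATF3, 0.86 between JUN and ATF3, 0.86 between FOS and JUN, and 0.84 between FOSL1 and JUND. The libraries share groups and the GC trend, so these correlations are a description.

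The makeup of the FOS family differed between the groups. FOS made up 7.31% and 5.44% of the summed TPM of FOS, FOSL1 and FOSL2 in the DMSO depc libraries and 43.5% and 26.7% in DMSO poly I:C. The share was 7.54% and 4.72% in 2-CM depc and 39.3% and 33.8% in 2-CM poly I:C. In RES depc it was 30.9% and 22.2% and in RES poly I:C 51.8% and 47.3%. FOSL1 made up 65.3% to 71.3% of the family in DMSO depc and 2-CM depc and 28.8% to 40.4% in the 6 poly I:C libraries. In the JUN family, JUND made up 43.2% to 69.3% of the summed TPM, and the share of JUN was highest in 2-CM poly I:C, at 37.0% and 33.5%. Scaling a library cannot move these shares, which show unequal change in TPM among members and not that any member stayed constant. The GC trend can move them, since GC content differed among the members (FOS 53.6%, FOSL1 59.5%, JUN 56.1%, JUND 69.9%). By replicate, the share of JUN was 25.1% and 15.7% in RES depc and 20.5% and 28.1% in RES poly I:C. The part of that trend in the shares was not tested. All shares use sums over transcripts, of which the main one held 37.7% to 79.2% for FOS and 63.6% to 96.7% for FOSL1.

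**Figure D2:**
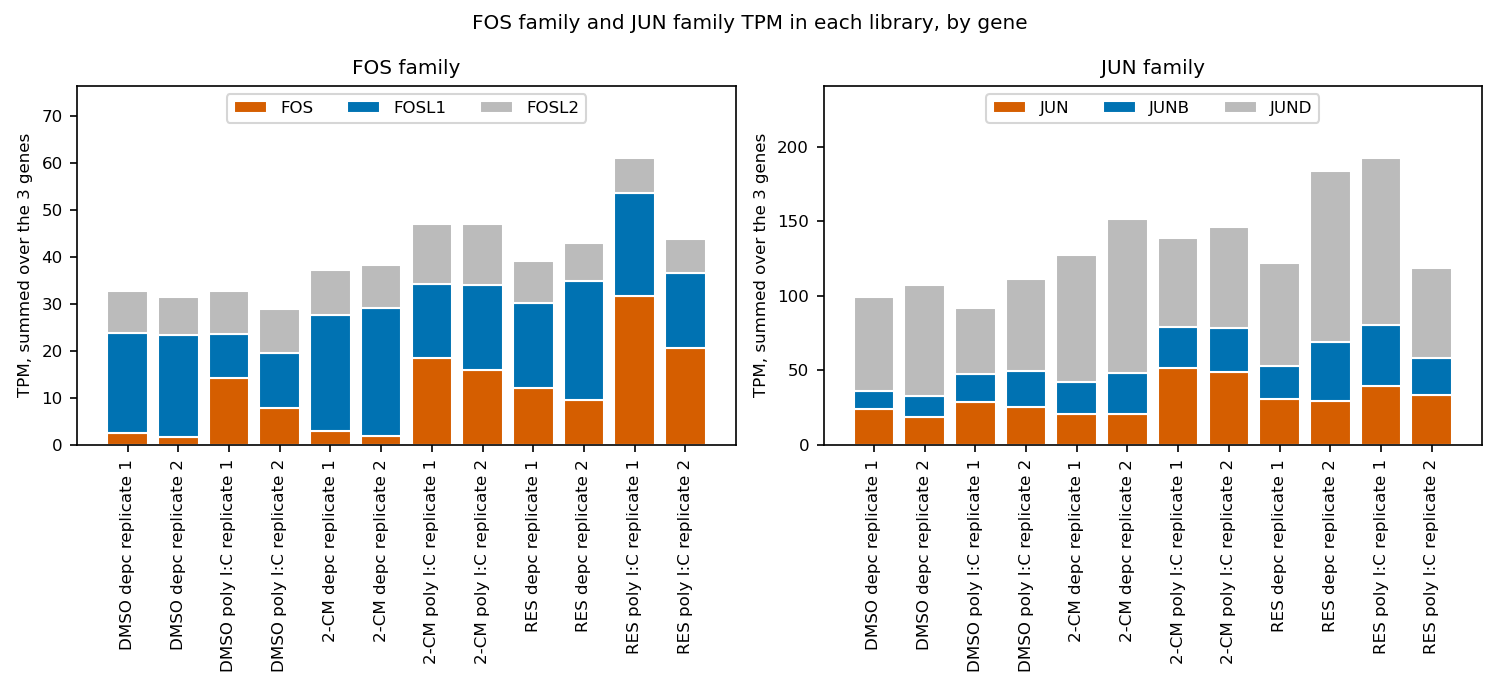
TPM of FOS, FOSL1 and FOSL2 (left) and of JUN, JUNB and JUND (right), stacked, in each of the 12 libraries (horizontal axes). FOS takes 4.72% to 7.54% of its family in DMSO depc and 2-CM depc and 47.3% to 51.8% in RES poly I:C.

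The comparison of poly I:C with depc under DMSO gives the response to double-stranded RNA without a compound. FOS rose by 1.93 (SE 0.34, limma adjusted p = 0.0264). All such fold changes are differences of log2(TPM + 1), a scale that shrinks those of low genes, and p-values are adjusted over all genes tested. FOS was the only member called at an adjusted p under 0.05, where 4.08% of all genes were called (0.797% higher). Not called were FOSL1 at -0.97 (SE 0.24, limma adjusted p = 0.0615), ATF3 at 0.93 (SE 0.38, 0.210), JUNB at 0.60 (SE 0.33, 0.370), DUSP1 at 0.54 (SE 0.27, 0.314) and JUN at 0.36 (SE 0.19, 0.344). The median of the 10 was 0.24 and that of all genes -0.14. The call of FOS was lost without either DMSO depc library, DMSO poly I:C replicate 1 or any of the 4 2-CM libraries, while its value stayed between 1.53 and 2.33 over all 12 omissions, in which 0.145% to 5.28% of all genes were called. It was also lost when the 4 DMSO libraries were fitted alone. A correction for GC content called 7 of the 10, where it called 16.1% of all genes, with FOSL1 lower and FOS, FOSL2, JUN, JUNB, ATF3 and DUSP1 higher.

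Under 2-CM, 5 members were called, FOS, JUN, ATF3, EGR1 and DUSP1, all higher, where 49.3% of all genes were called and 37.5% were called higher. FOS rose by 2.47 (SE 0.34, limma adjusted p = 0.0109), ATF3 by 1.67 (SE 0.38, 0.0274), JUN by 1.25 (SE 0.19, 0.0151), EGR1 by 1.02 (SE 0.17, 0.0212) and DUSP1 by 0.99 (SE 0.27, 0.0290). FOSL1 was at -0.59 (SE 0.24, 0.0666) and JUND at -0.56 (SE 0.34, 0.181). The median of all genes was itself 0.61 here, beside 0.70 for the 10 members. Rescaling each library by the median of ratios brought the median of all genes to 0.03. On that scale FOS at 1.75 and ATF3 at 0.88 were still called, FOSL1 was called lower at -1.39, and JUN at 0.42, EGR1 at 0.19 and DUSP1 at 0.17 were not called. These were 3 of 10, where 43.8% of all genes were called on that scale. With the GC correction JUN was at 1.46, EGR1 at 1.17 and DUSP1 at 1.14, and 8 members were called, where 29.7% of all genes were. Each of the 5 calls on TPM was lost when any of the 4 libraries compared was left out, and the share of all genes called then fell to 0.215% to 0.268%.

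Under RES no member was called with limma, where 0.442% of all genes were called, and 2 members, FOS and DUSP1, had an unadjusted p under 0.05, as 14.0% of all genes had. FOS was at 1.18 (SE 0.34, limma adjusted p = 0.178), DUSP1 at 0.71 (SE 0.27, 0.286), JUN at 0.28 (SE 0.19, 0.578) and EGR1 at -0.08 (SE 0.17, 0.865). The GC correction called FOS at 1.41 and DUSP1 at 1.03, where it called 3.18% of all genes. In the authors' deposited tables, 1 for each compound, the log2 fold change of FOS was 2.55 with DMSO (adjusted p = 7.94e-06), 1.88 (7.94e-10) under 2-CM and 1.30 (0.999) under RES. Of the genes with an adjusted p in the authors' deposited tables, 1.25% had one under 0.05 with DMSO, 46.4% under 2-CM and 0.363% under RES. The authors' deposited table for 2-CM also gave an adjusted p under 0.05 to ATF3 at 1.02, JUN at 0.44, FOSL1 at -1.38, JUND at -1.41, JUNB at -0.64 and FOSL2 at -0.45, so that with FOS 7 of 10 members had one. That table, the authors' deposited values for 2-CM, gave none to EGR1 at 0.21, DUSP1 at 0.16 or IER3 at -0.71.

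**Figure D3:**
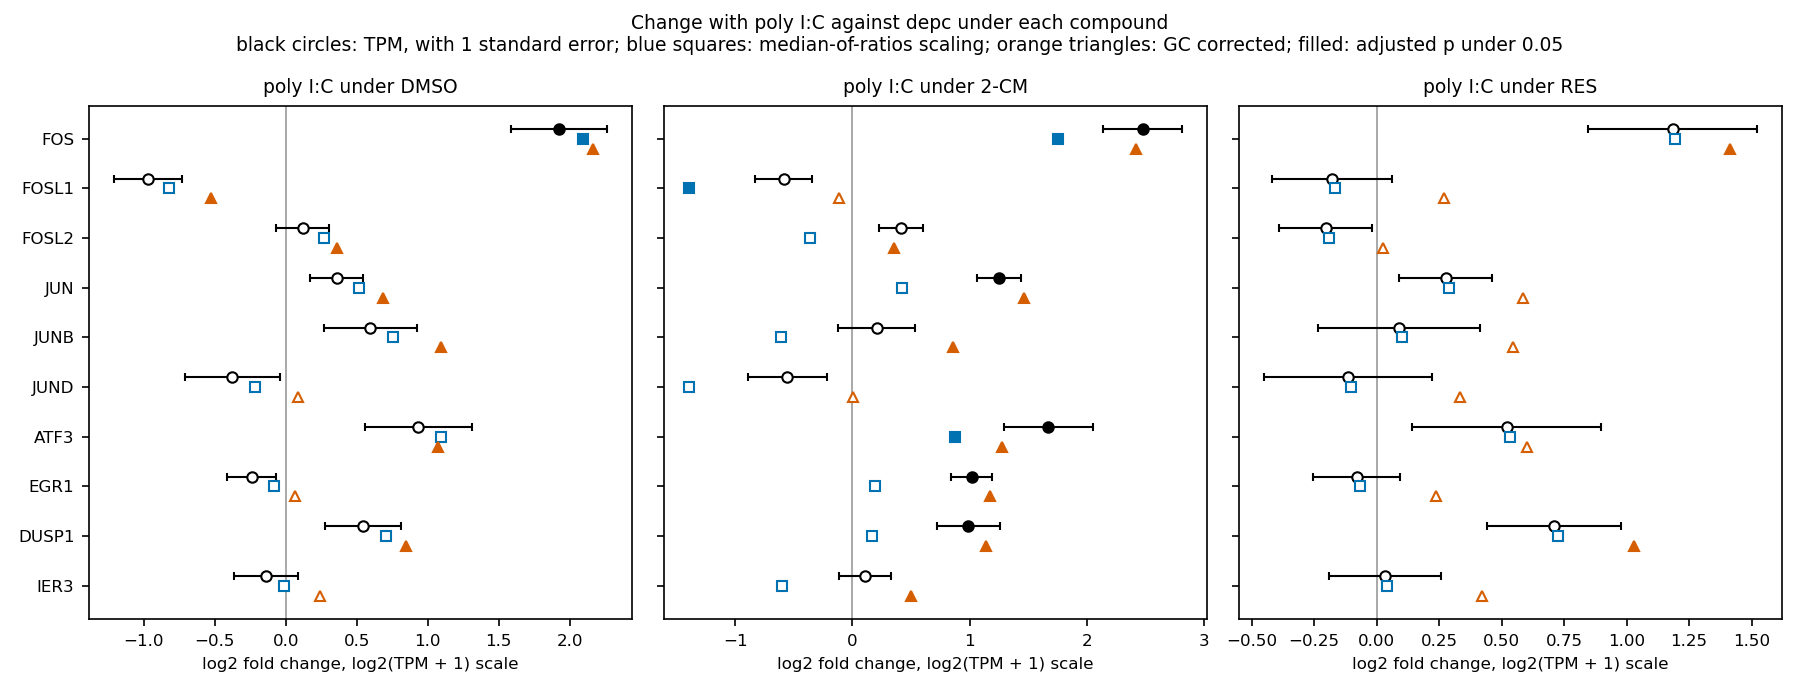
Log2 fold change of poly I:C against depc (horizontal axes) for the 10 genes under DMSO, 2-CM and RES. Black circles are from TPM with 1 standard error, blue squares after median-of-ratios scaling, orange triangles after the GC correction, and filled symbols have an adjusted p under 0.05. FOS lies right of 0 in all 3 panels, from 1.18 to 2.47 on TPM, and under 2-CM the squares of JUN, EGR1 and DUSP1 lie at 0.42 or below.

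Averaged over the 3 compounds, FOS rose by 1.86 (SE 0.20, limma adjusted p = 0.000927), ATF3 by 1.04 (SE 0.22, 0.0104), DUSP1 by 0.75 (SE 0.16, 0.0103) and JUN by 0.63 (SE 0.11, 0.00535). FOSL1 fell by 0.58 (SE 0.14, limma adjusted p = 0.0169). These were 5 of 10, where 31.2% of all genes were called (13.4% higher and 17.8% lower) and the median of all genes was 0.16. Both poly I:C libraries were above both depc libraries under every compound for FOS, JUN and DUSP1, as for 3.14% of all genes. No omission of 1 library ended the calls of FOS, ATF3, DUSP1 or JUN. JUN, at 0.41, was not called after median-of-ratios scaling. FOSL1 was not called after the GC correction, at -0.12, nor without DMSO depc replicate 2, 2-CM depc replicate 2 or 2-CM poly I:C replicate 1, and it lay between -0.66 and -0.50 over the 12 omissions. EGR1 at 0.23 (SE 0.10, 0.0968), FOSL2 at 0.11 (SE 0.11, 0.419), JUNB at 0.30 (SE 0.19, 0.223), JUND at -0.35 (SE 0.19, 0.174) and IER3 at 0.00 (SE 0.13, 0.995) were not called on TPM. The GC correction called 8 members, all higher, where it called 37.3% of all genes: FOS, ATF3, DUSP1 and JUN, and also JUNB at 0.83, EGR1 at 0.49, IER3 at 0.39 and FOSL2 at 0.25. JUND was above 0, at 0.14, after that correction, and FOSL2 and IER3 were below 0 after median-of-ratios scaling, at -0.09 and -0.19.

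Counted by library, both poly I:C libraries were above both depc libraries for 6 of the 10 genes under DMSO (11.5% of all genes), for 7 under 2-CM (62.6%) and for 3 under RES (6.05%). They were below for 3 under DMSO (33.4%), 2 under 2-CM (23.9%) and 1, FOSL2, under RES (24.1%). FOSL1 and JUND were among the lower genes under both DMSO and 2-CM, and EGR1 was among the lower under DMSO and among the higher under 2-CM. These counts are on TPM. After the GC correction the log2 fold changes under DMSO and 2-CM were 0.086 and 0.0020 for JUND and -0.52 and -0.11 for FOSL1.

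Whether a compound altered the response to poly I:C was tested as the difference of the responses. For 2-CM minus DMSO no member was called with limma, where 0.0116% of all genes were, and 2 members, EGR1 and JUN, had an unadjusted p under 0.05, as 29.7% of all genes had. EGR1 had a difference of 1.26 (SE 0.25, limma adjusted p = 0.161), from -0.24 under DMSO to 1.02 under 2-CM, and JUN one of 0.89 (SE 0.26, 0.161). The median of all genes for this difference was 0.68 on TPM, and after median-of-ratios scaling EGR1 was at 0.28 and JUN at -0.10. After the GC correction, which brought that median to 0.00, EGR1 was at 1.11 (limma adjusted p = 0.0822) and JUN at 0.78 (0.0935). For RES minus DMSO 0% of all genes were called with limma, and among the members 1, FOSL1 at 0.79 (SE 0.34, 1.00), had an unadjusted p under 0.05, as 1.70% of all genes had. Neither difference had a member called after the GC correction, where 0.0175% and 0% of all genes were. Both differences are taken from the same DMSO groups.

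The compounds were then compared with DMSO within each transfection. In depc cells FOS was higher with RES by 1.95 (SE 0.34, limma adjusted p = 0.0419), the only member called, where 1.03% of all genes were called (0.838% higher). ATF3 was at 1.82 (SE 0.38, 0.0622), JUNB at 1.07 (SE 0.33, 0.152), EGR1 at 0.76 (SE 0.17, 0.0802), IER3 at 0.68 (SE 0.22, 0.185), JUN at 0.50 (SE 0.19, 0.243) and DUSP1 at -0.56 (SE 0.27, 0.398). The call of FOS was lost when any 1 of the 12 libraries was left out and after median-of-ratios scaling, while its value stayed between 1.79 and 2.11 over the omissions and was 1.80 after that scaling. In those omissions 0% to 0.390% of all genes were called, and 0.0756% after that scaling. The GC correction called 5 members, all higher, where it called 11.8% of all genes: FOS at 1.75, ATF3 at 1.61, JUNB at 0.94, EGR1 at 0.54 and IER3 at 0.45. In poly I:C cells no member was called for RES with limma, where 0.157% of all genes were, and 5 had an unadjusted p under 0.05, as 13.4% of all genes had. These were ATF3 at 1.40 (SE 0.38, limma adjusted p = 0.162), FOS at 1.21 (SE 0.34, 0.173), EGR1 at 0.92 (SE 0.17, 0.0813), IER3 at 0.85 (SE 0.22, 0.159) and FOSL1 at 0.78 (SE 0.24, 0.204). Here the GC correction called 5, where it called 7.02% of all genes, with FOSL1 at 0.58, ATF3 at 1.15, EGR1 at 0.71 and IER3 at 0.63 higher and FOSL2 at -0.52 lower. In depc cells both RES libraries were above both DMSO libraries for 6 members (25.7% of all genes) and below for 1, DUSP1 (8.47%), and in poly I:C cells above for 7 (28.3%) and below for 2, FOSL2 and DUSP1 (7.04%). In both transfections both RES libraries were above both DMSO libraries for FOS, JUN, JUNB, ATF3, EGR1 and IER3, 6 of 10 members, as for 17.2% of all genes.

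**Figure D4:**
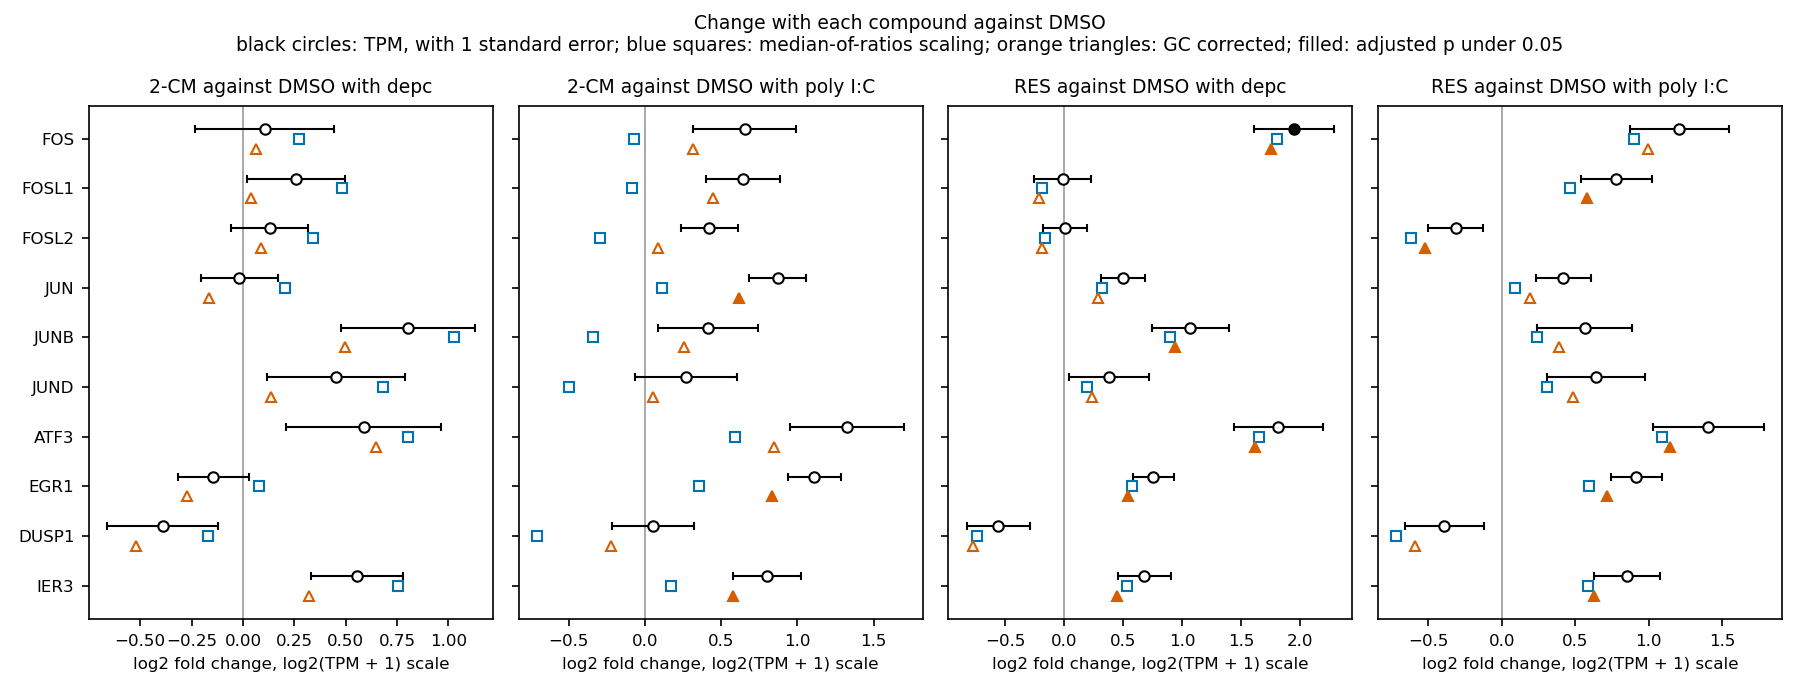
Log2 fold change of each compound against DMSO (horizontal axes) for the 10 genes, in depc and in poly I:C cells, with symbols as in the plot of poly I:C changes (circles with 1 standard error, squares and triangles for the other scalings, filled at an adjusted p under 0.05). With RES in depc cells FOS and ATF3 lie at 1.95 and 1.82, and DUSP1 lies left of 0 in both RES panels.

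The average of the RES effect over both transfections was added after the values were seen. On it FOS rose by 1.58 (SE 0.24, limma adjusted p = 0.00970), ATF3 by 1.61 (SE 0.27, 0.0120), EGR1 by 0.84 (SE 0.12, 0.00867) and IER3 by 0.77 (SE 0.16, 0.0239), 4 of 10 members, where 7.91% of all genes were called (6.62% higher). FOS, ATF3 and EGR1 were no longer called without DMSO depc replicate 2, and none of the 4 was called when the DMSO and RES libraries were fitted alone. IER3 lost its call without any of the 4 DMSO libraries, either 2-CM poly I:C library or RES poly I:C replicate 1. Over the 12 omissions 1.04% to 8.12% of all genes were called, and 0.105% with the DMSO and RES libraries alone. After median-of-ratios scaling FOS at 1.35 and ATF3 at 1.37 were called, and EGR1 at 0.58 and IER3 at 0.56 were not, where 2.2% of all genes were called. JUNB at 0.82 (SE 0.23, 0.0666), JUN at 0.46 (SE 0.13, 0.0709), FOSL2 at -0.15 (SE 0.13, 0.552) and DUSP1 at -0.47 (SE 0.19, 0.176) were not called on TPM. With the GC correction 7 members were called, where 21.2% of all genes were, and among them JUNB was higher at 0.66 and DUSP1 at -0.68 and FOSL2 at -0.36 were lower.

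For 2-CM against DMSO no member was called with limma in depc cells (where 0.0349% of all genes were), in poly I:C cells (0.105%) or on their average (0.0815%), again added after the values were seen. At an unadjusted p under 0.05 there were 2, 6 and 6 members, where 4.84%, 34.2% and 12.9% of all genes were. The GC correction called none of the 10 in depc cells (0.0931% of all genes), JUN at 0.62, EGR1 at 0.83 and IER3 at 0.58 in poly I:C cells (4.71%), and IER3 at 0.45 on the average (1.20%). In depc cells JUNB was at 0.80 (SE 0.33, limma adjusted p = 0.721), IER3 at 0.56 (SE 0.22, 0.721), FOS at 0.11 (SE 0.34, 0.901) and EGR1 at -0.14 (SE 0.17, 0.749). In poly I:C cells ATF3 was at 1.33 (SE 0.38, 0.104), EGR1 at 1.11 (SE 0.17, 0.0830), JUN at 0.87 (SE 0.19, 0.0905) and IER3 at 0.80 (SE 0.22, 0.102). The median of all genes in poly I:C cells was 0.59, and after median-of-ratios scaling EGR1 was at 0.35 and JUN at 0.11. Both 2-CM libraries were above both DMSO libraries for 5 members in depc cells (22.8% of all genes) and 8 in poly I:C cells (70.4%). They were below for 1, EGR1, in depc cells (33.3%) and for none in poly I:C cells (6.0%). They were above in both transfections for FOSL1, FOSL2, JUNB and IER3, 4 of 10, as for 10.9% of all genes.

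The genes around the members were read from 5 lists, whose counts stand beside the share of all genes called: 13.4% higher and 17.8% lower for poly I:C averaged over compounds, and 6.62% higher and 1.29% lower for RES averaged over transfections. In either direction, median-of-ratios scaling called 36.3% and 2.2% of all genes for these averages, and the GC correction 37.3% and 21.2%. When a library was left out the shares were 13.6% to 53.4% and 1.04% to 8.12%. Of 12 other AP-1 and small MAF factors 9 were above the filter. On the average over compounds 1 was called higher with poly I:C and none lower, with a median of 0.06 beside 0.16 for all genes, and after the GC correction 5 higher and 1 lower. The gene called on TPM was BATF2, an AP-1 partner induced by interferon, which rose by 2.32 (SE 0.13, limma adjusted p = 3.94e-05). BATF2 went from 1.46 ± 0.158 TPM (SD, n = 2) to 16.1 ± 3.86 TPM under DMSO, from 2.84 ± 0.404 to 19.1 ± 1.68 TPM under 2-CM and from 3.54 ± 0.00161 to 14.8 ± 0.701 TPM under RES. With RES averaged over transfections 4 of the 9 were called higher and none lower (median 0.73 beside 0.21 for all genes), among them the small MAF factors MAFK at 0.86 (SE 0.20, 0.0344) and MAFF at 0.80 (SE 0.16, 0.0204). None of the 9 was called after median-of-ratios scaling, where 2.2% of all genes were. After the GC correction there were 4 higher and none lower, where 21.2% of all genes were called, and on TPM leaving out a library left between 0 and 4 calls.

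Of 27 other immediate early genes 20 were above the filter. Under 2-CM 15 of them were called higher with poly I:C and none lower, with a median of 1.20 beside 0.61 for all genes, of which 37.5% were called higher. After median-of-ratios scaling 8 were called, where 43.8% of all genes were, and after the GC correction 16 higher and none lower, where 29.7% were. On TPM, leaving out a library gave 0 to 15 calls, the fewest without one of the 4 libraries compared, where 0.215% to 0.268% of all genes were called. KLF6, a zinc finger factor, rose by 2.80 (SE 0.60, limma adjusted p = 0.0270), from 13.0 ± 0.547 TPM (SD, n = 2) to 96.8 ± 11.6 TPM. KLF10, a zinc finger repressor induced by TGF-beta, rose by 2.45 (SE 0.51, 0.0268), from 10.1 ± 1.10 TPM to 59.3 ± 4.94 TPM. Both calls were lost without any of those 4 libraries. Under DMSO and under RES none of the 20 was called with limma, where 4.08% and 0.442% of all genes were. Under each 1 had an unadjusted p under 0.05, where 19.7% and 14.0% of all genes had. The GC correction called 3 higher and none lower under DMSO (16.1% of all genes) and 1 higher and none lower under RES (3.18%). On the average over compounds 10 were called higher and none lower, with 4 to 14 called when a library was left out, 8 higher after median-of-ratios scaling and 16 higher and none lower after the GC correction. With RES averaged over transfections 4 were called higher and 1 lower, with a median of 0.28 beside 0.21 for all genes, and after median-of-ratios scaling 1 was called higher and 1 lower. The GC correction turned the balance, with 3 higher and 5 lower, and leaving out a library gave 1 to 5 calls. BTG2, an antiproliferative gene induced by stress, rose by 1.67 (SE 0.15, limma adjusted p = 0.00223), with 3.77 ± 0.170 TPM in DMSO depc, 14.5 ± 0.0243 TPM in RES depc, 5.09 ± 0.154 TPM in DMSO poly I:C and 18.0 ± 3.15 TPM in RES poly I:C. NR4A1, an orphan nuclear receptor, rose by 1.27 (SE 0.19, 0.00928), a call lost without DMSO depc replicate 2 and, at 1.04, after median-of-ratios scaling. The gene called lower was IER5L, at -1.16 (SE 0.28, limma adjusted p = 0.0411) and at -1.32 after the GC correction. Its call was lost in 11 of the 12 omissions and, at -1.40, after median-of-ratios scaling.

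Of 14 feedback inhibitors of MAP kinases 10 were above the filter. On the average over compounds 3 were called higher with poly I:C and 1 lower (median 0.13 beside 0.16 for all genes), 4 higher and 2 lower after the GC correction, and 1 to 4 in all when a library was left out. The lower one on TPM was DUSP2, a nuclear phosphatase of MAP kinases, which fell by 0.96 (SE 0.18, limma adjusted p = 0.00645) and by 0.39 after the GC correction, opposite in sign to DUSP1. Under DMSO, DUSP2 was at 13.8 ± 2.03 TPM (SD, n = 2) with depc and 5.70 ± 0.747 TPM with poly I:C. With RES averaged over transfections 2 were called higher and none lower (median 0.25 beside 0.21), and after median-of-ratios scaling 1 was called higher and 1 lower. After the GC correction there were 3 higher and 2 lower. SPRY4, a Sprouty inhibitor of receptor signalling, rose by 1.11 (SE 0.14, limma adjusted p = 0.00635), with 2.56 ± 0.468 TPM in DMSO depc and 5.97 ± 0.263 TPM in RES depc. DUSP5, a phosphatase of ERK, rose by 0.99 (SE 0.16, 0.0115), a call lost without either DMSO depc library and, at 0.78, after median-of-ratios scaling.

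All 22 MAP kinases and SRF and ETS cofactors were above the filter. On the average over compounds 1 was called higher and 6 lower, while their median was 0.33 beside 0.16 for all genes, and leaving out a library gave between 5 and 15 calls. MAPK3, which encodes the kinase ERK1, fell by 0.83 (SE 0.15, limma adjusted p = 0.00647), and MAP2K2, which encodes its activator MEK2, fell by 0.79 (SE 0.16, 0.00913). After the GC correction these values were -0.30 and -0.22. The gene called higher was MAP2K1, which encodes MEK1, another activator of ERK1. MAP2K1 rose by 0.87 (SE 0.21, limma adjusted p = 0.0182) and by 0.68 after the GC correction. Its call was lost without DMSO depc replicate 2, 2-CM depc replicate 2, 2-CM poly I:C replicate 1 or RES poly I:C replicate 2. None of the 22 was called by limma with RES averaged over transfections, 1 had an unadjusted p under 0.05, where 23.1% of all genes had, and the GC correction called 1, lower, where it called 21.2% of all genes.

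Of 20 targets of AP-1, 14 were above the filter, and MMP1, MMP3, MMP9, MMP10, MMP13 and SPP1 were below it. With poly I:C averaged over compounds 3 were called higher and 3 lower (median -0.01 beside 0.16 for all genes), 5 higher and 4 lower after the GC correction, and 3 to 7 in all when a library was left out. IL6, an inflammatory cytokine, rose by 2.17 (SE 0.21, limma adjusted p = 0.000576). It went from 0.308 ± 0.0286 TPM (SD, n = 2) to 4.58 ± 2.09 TPM under DMSO and from 0.929 ± 0.0574 to 17.2 ± 1.56 TPM under 2-CM. Under RES it went from 0.906 ± 0.750 to 3.39 ± 1.26 TPM. TGFB1, a cytokine, fell by 0.93 (SE 0.14, 0.00347), and HMGA1, a chromatin protein, fell by 0.81 (SE 0.15, 0.00645), and these values were -0.40 and -0.27 after the GC correction. With RES averaged over transfections 3 of the 14 were called higher and none lower (median 0.28 beside 0.21), and 1 was called higher after median-of-ratios scaling. After the GC correction there were 4 higher and 3 lower. HBEGF, a growth factor of the EGF family, rose by 1.53 (SE 0.19, limma adjusted p = 0.00609), with 2.68 ± 0.826 TPM in DMSO depc, 7.81 ± 2.25 TPM in RES depc, 2.27 ± 0.615 TPM in DMSO poly I:C and 10.4 ± 0.688 TPM in RES poly I:C. PLAU, the protease urokinase, rose by 1.00 (SE 0.14, 0.00751) and was not called after median-of-ratios scaling, at 0.77. Fitting the DMSO and RES libraries alone ended each RES-averaged call of a rise named in these lists except that of BTG2.

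Genes with the pattern most like each member were sought among 10174 genes with a mean TPM of 5 or more, by the Pearson correlation of log2(TPM + 1) over the 12 libraries, which share groups and the GC trend. FOS was nearest to AC022400.6 (r = 0.98) and the antisense RNA MAPKAPK5-AS1 (r = 0.98). ATF3 was nearest to ZFAND2A (r = 0.97) and CD83 (r = 0.97), JUN to TRIM56 (r = 0.96) and HOXB6 (r = 0.94), and EGR1 to JOSD1 (r = 0.96) and ZNF394 (r = 0.95). JUNB was nearest to BBC3 (r = 0.96), IER3 to HLA-E (r = 0.95) and PPP1R15A (r = 0.94), and DUSP1 to UQCRFS1 (r = 0.95) and EXOSC7 (r = 0.94). FOSL1 was nearest to SPOUT1 (r = 0.98) and CDC42EP1 (r = 0.97), JUND to OCEL1 (r = 0.98) and DEDD2 (r = 0.97), and FOSL2 to CD3EAP (r = 0.94) and LINC01089 (r = 0.93). The exons of JUND were 69.9% G or C, those of JUNB 64.9% and those of ATF3 50.2%, the highest and lowest of the members being JUND and ATF3. The median of the 60609 genes of the annotation, most of them not tested, was 46.6%.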

How the data were processed

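RNA was measured in 12 libraries, 2 in each of 6 groups taken from the labels. Per the labels, polyadenylated RNA went through a stranded TruSeq kit and was read in pairs of 101 bases. The submitters' processing notes name bcl2fastq 2.20, HISAT2 2.1.0, StringTie, DESeq2 and hg38. Per the file headers, StringTie 2.0.4 estimated the abundance of GENCODE 32 transcripts, with no strand option in its command. The authors deposited coverage, FPKM and TPM per transcript, and these were summed per gene. The authors' deposited tables give a mean of normalised counts as a signal, log2 fold changes and their errors, a score for each test, and p-values. Neither read counts nor a count test were used. Reads were estimated from coverage and length.

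Genes that reached a TPM of 1 in 2 or more libraries were tested with limma 3.58.1 (R 4.3.3) on log2(TPM + 1), with all 12 libraries sharing 1 estimate of the spread (6 residual degrees of freedom), 6 group means and a mean-dependent prior. P-values were Benjamini-Hochberg adjusted within each comparison and called under 0.05. Tables were built with Python 3.11.15, pandas 2.3.3 and numpy 2.4.6. The fit was tested on simulated data with noise drawn separately for each gene, which cannot show how the GC trend affects calls. The alternatives were FPKM, median-of-ratios scaling, a pseudocount of 0.1, no filter on low values, a GC correction in 50 bins of genes, a replicate block, only the groups compared, and leaving out each library. Named genes were the 10 members and, in each list, the genes called with the largest change in each direction, of which the text gives some, and the genes correlated best with each member, of which one is not reported here. The members and lists were chosen with earlier results of these data known. RefSeq supplied the promoter sequences.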

Additional observations from a re-analysis of the deposited data

Results flagged for a closer look

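EGR1 lay on opposite sides of 0 in every library for poly I:C against depc under DMSO and under 2-CM, with log2 fold changes of -0.24 and 1.02. The difference of 1.26 (SE 0.25) had a limma adjusted p of 0.161 and was not called. EGR1 also lay on opposite sides for 2-CM against DMSO, at -0.14 in depc cells and 1.11 in poly I:C cells, which is the same difference read the other way. After median-of-ratios scaling the 4 values were -0.08, 0.19, 0.08 and 0.35. After the GC correction they were 0.06, 1.17, -0.27 and 0.83, and the difference was 1.11 with a limma adjusted p of 0.0822.

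FOSL2 was higher in both poly I:C libraries under DMSO, by 0.12, and under 2-CM, by 0.41, and lower in both under RES, at -0.20. In the same order the values were 0.27, -0.36 and -0.19 after median-of-ratios scaling and 0.36, 0.36 and 0.026 after the GC correction. The authors' deposited tables gave 0.34, -0.45 and -0.22. Under DMSO all these values were above 0, and under RES only that after the GC correction was. Under 2-CM the sign depended on the processing. The difference of the RES response from that under DMSO was -0.32 (SE 0.26), with a limma adjusted p of 1.00, and that of the 2-CM response was 0.29 (SE 0.26, 0.432). The difference between RES and 2-CM was not tested. With 2 libraries in a group, no library could be tested as standing apart.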

How the results depend on the processing

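Over 121 single values and all their alternatives, 1871 of 2276 kept direction and call status, 329 lost a call, 40 gained one and 36 changed sign. The values were those of all members for poly I:C and of the genes called with the largest changes in the lists. For the other comparisons only members with an unadjusted p under 0.05 were included. Sign changes outside this choice are not counted, such as EGR1 for 2-CM in depc cells, at -0.14 on TPM and 0.08 after median-of-ratios scaling. Values not called on TPM that stayed uncalled count as kept, so this tally does not measure how stable the calls were. The call of FOS held in 4 of 19 alternatives for RES in depc cells and in 18 of 18 for poly I:C averaged over compounds. The number of members called moved as follows. The share of all genes called under the same setting stands in parentheses. With the GC correction it was 7 under DMSO (16.1%), 8 under 2-CM (29.7%), 2 under RES (3.18%) and 8 on the average over compounds (37.3%) for poly I:C, 5 for RES in depc cells (11.8%), 3 for 2-CM (4.71%) and 5 for RES (7.02%) in poly I:C cells, and 1 for 2-CM (1.20%) and 7 for RES (21.2%) averaged over transfections. With median-of-ratios scaling it was 3 for poly I:C under 2-CM (43.8%), 0 for RES in depc cells (0.0756%) and 2 for RES averaged (2.2%). With only the groups compared it was 0 for poly I:C under DMSO (0.0349%), 8 under 2-CM (69%), 0 for RES in depc cells (0%) and 0 for RES averaged (0.105%). Without the filter it was 3 for poly I:C under 2-CM (1.61%, against 49.3% with the filter) and 1 for 2-CM in poly I:C cells (0.156%), and with FPKM it was 0 for RES in depc cells (0.305%). Leaving out 1 library gave 0 to 2 members for poly I:C under DMSO (0.145% to 5.28%), 0 to 6 under 2-CM (0.215% to 59.1%), 4 to 5 on average (13.6% to 53.4%), 0 to 0 for RES in depc cells (0% to 0.39%) and 0 to 5 for RES averaged (1.04% to 8.12%). The cause was not tested. These log2 fold changes of poly I:C changed sign. With the GC correction, under DMSO, JUND was 0.086, EGR1 0.062 and IER3 0.24, under 2-CM JUND was 0.0020 and SPRED1 -0.48, under RES FOSL1 was 0.27, FOSL2 0.026, JUND 0.33 and EGR1 0.24, and on average JUND was 0.14. With median-of-ratios scaling, under 2-CM, FOSL2 was -0.36, JUNB -0.61 and IER3 -0.60, on average FOSL2 was -0.094 and IER3 -0.19, and the JUN difference between 2-CM and DMSO was -0.095. For 2-CM in poly I:C cells that scaling gave FOSL1 -0.087 and FOSL2 -0.29. With FPKM IER3 under 2-CM was -0.022 and EGR1 under RES 0.020, and with a pseudocount of 0.1 IER3 on average was -0.0048. Leaving out 1 library under RES gave -0.41 to 0.054 for FOSL1, -0.32 to 0.50 for JUNB, -0.55 to 0.32 for JUND, -0.22 to 0.059 for EGR1 and -0.12 to 0.19 for IER3, and on average -0.050 to 0.052 for IER3.

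The deviations of same-numbered replicates correlated across genes at 0.15 to 0.76 in all 10 pairs among the 5 groups other than RES poly I:C, and at -0.80 to -0.31 in all 5 pairs with RES poly I:C. The labels name nothing that a number shares, and the pairs with RES poly I:C had the other sign, so the numbers were not taken to pair the libraries. Whether libraries of the same number share something was not tested. The replicate block takes the numbers as labelled, so it cannot absorb the opposite sign in RES poly I:C. The replicate block left the members called at 1 under DMSO (2.01%), 5 under 2-CM (51.8%), 0 under RES (0.227%) and 5 on average (33.3%) for poly I:C, and at 1 for RES in depc cells (0.25%) and 4 for RES averaged (6.67%). With the block fewer genes were called under DMSO (346 against 701), under RES (39 against 76), for RES in depc cells (43 against 177) and for RES averaged (1147 against 1360), and more under 2-CM (8895 against 8475) and on average (5723 against 5361). FOS in DMSO depc rests on 75.2 to 119 estimated reads, the fewest of any member and group.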
